A study of Homo sapiens with 12 samples.

Results

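Described here are 8 histone genes measured by RNA sequencing in 2 human colorectal cancer cell lines, HCT116 and LoVo. They are the linker histones H1-2 and H1-10, the H2A gene H2AC6, the H2B genes H2BC4, H2BC5, H2BC12 and H2BC21, and the H2A variant gene H2AZ1. They were chosen by gene symbol, as 8 of the 62656 gene rows of the deposited count table, with their levels and differences in these 12 libraries in view. Both comparisons below therefore describe them: no p is given for any of the 8. Counts past a threshold are set beside those of all genes. Neither these counts nor the place of a single member inside or outside a threshold is read as a test. All 8 had a row and passed the filter on low counts in both lines. Elsewhere, passing the threshold means an edgeR quasi-likelihood test with a Benjamini-Hochberg adjusted p under 0.05 over all genes of the line.

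Per the labels, the study raised the non-coding RNA SLERT, which carries snoRNA sequences at its ends, in HCT116 and lowered it in LoVo, with 3 libraries per group. In HCT116 the groups were the control, whose columns are headed Vector, and cells with SLERT overexpression (OE). In LoVo they were the control, with columns headed ShNC, and the libraries labelled SLERT knockdown (KD). All 12 libraries were made from total RNA with an Illumina TruSeq RNA kit, and neither a time, an agent nor the number of clones is given in the labels. Since no label says that replicates were separate cultures, p-values cover the spread of these libraries, possibly a technical one. In bulk RNA, fewer cells of a kind, such as fewer cells in S phase, and less RNA per cell cannot be told apart.

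Histones package DNA into nucleosomes: H2A, H2B, H3 and H4 form the core, and H1 linker histones bind where DNA enters and leaves it. Most histone genes lie in clusters and are transcribed in S phase into mRNAs that end in a stem-loop, which is bound by SLBP, instead of a poly(A) tail. Some of these cluster genes also give longer, polyadenylated transcripts. Replacement and variant genes such as H2AZ1 and H1-10 are not confined to S phase, and their mRNAs have ordinary poly(A) tails. A library that selects poly(A) RNA would see mainly the polyadenylated transcripts.

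In GENCODE v29 (GRCh38), H1-2 (ENSG00000187837) is a single exon on chromosome 6 at 26055787 to 26056428, minus strand. H2BC12 (ENSG00000197903), also a single exon on the minus strand, lies on chromosome 6 at 27146418 to 27146798. H2BC4 (ENSG00000180596, 26114873 to 26123926, minus strand), H2AC6 (ENSG00000180573, 26124145 to 26139116, plus strand) and H2BC5 (ENSG00000158373, 26158146 to 26171349, plus strand) follow each other on chromosome 6, and each has a transcript of 2 exons that reaches far past the short coding exon. H2BC21 (ENSG00000184678) is a single exon on chromosome 1 at 149884459 to 149886652, minus strand. H1-10 (ENSG00000184897, chromosome 3, 129314771 to 129316277, minus strand) has 1 exon, and H2AZ1 (ENSG00000164032, chromosome 4, 99948086 to 99950388, minus strand) has transcripts of up to 5 exons. H1-10 shares 345 exon bases with the antisense gene H1-10-AS1 and H2AZ1 shares 223 with H2AZ1-DT. Those partners held 99 and 52 counts over all 12 libraries, and any use of strand in the counting is not given in the sources used here.

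The 3′ stem-loop is shown because it marks the replication-dependent form of the mRNA. It is printed as DNA from the GENCODE transcripts, with the loop in capitals.
H2AC6: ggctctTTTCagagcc
H2BC21: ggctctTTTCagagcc
H2BC4: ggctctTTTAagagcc
H2BC5: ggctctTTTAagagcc
H2AX, a variant gene described below: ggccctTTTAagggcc
In H2AC6 the stem-loop stood in 2 of 3 transcripts and was followed by 1114 or 1128 further bases, and in H2BC21 by 1729, so these annotated transcripts run on past it. H2BC5 had it 39 bases from the end of its short transcript of 496 bases and not in its spliced one of 789 bases, and both hold AATAAA in their last 60 bases. H2BC4 had it in its transcript of 571 bases and not in that of 659. None was found in the annotated transcripts of H1-2, H2BC12, H1-10 and H2AZ1. The annotated transcripts of H2BC12 (381 bases) and H1-2 (642 bases) are shorter than the 495 and 731 bases used for the deposited FPKM, so the absence says nothing of their true 3′ ends. A stem-loop was found for 4 of the 8 genes, for 26 of the 60 other cluster histones with a transcript (43.3%), for 1 of 23 other variant histones (4.35%) and in 0.0547% of all transcripts. Cluster histones without one include H2BC3, H3C1 and H4C1, with annotated transcripts of 381, 411 and 312 bases. The FPKM used 487, 508 and 402 bases for them. The 43.3% therefore does not say how many of these genes lack a stem-loop.

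The promoters are shown because neighbours in the cluster can share one, and because members with nearly the same motifs differed in level. The bases run 5′ to 3′ up to the base before the RefSeq start (GRCh38.p14), with capitals for 3 motifs searched on both strands: the octamer ATTTGCAT, the CCAAT box CCAAT and the TATA box TATAAA. For H2BC4 250 bases are given, which hold all of the 245 bases between its start and that of the divergent H2AC6; for the others, 120.
H2BC4, chr6:26123927-26124176, minus strand: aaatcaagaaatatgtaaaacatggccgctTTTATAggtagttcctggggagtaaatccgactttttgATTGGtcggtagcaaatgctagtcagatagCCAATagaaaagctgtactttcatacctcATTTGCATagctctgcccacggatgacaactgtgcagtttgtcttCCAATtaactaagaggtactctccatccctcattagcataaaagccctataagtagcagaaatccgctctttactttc
H2BC5, chr6:26158001-26158120, plus strand: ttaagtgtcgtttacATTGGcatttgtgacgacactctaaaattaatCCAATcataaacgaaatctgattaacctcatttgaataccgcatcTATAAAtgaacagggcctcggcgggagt
H2BC12, chr6:27146859-27146978, minus strand: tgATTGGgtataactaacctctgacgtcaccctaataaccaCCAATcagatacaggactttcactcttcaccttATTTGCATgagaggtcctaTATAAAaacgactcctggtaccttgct
H2BC21, chr1:149886683-149886802, minus strand: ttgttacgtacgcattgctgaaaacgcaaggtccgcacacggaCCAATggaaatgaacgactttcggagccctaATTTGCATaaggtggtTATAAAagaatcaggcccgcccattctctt
H1-2, chr6:26056471-26056590, minus strand: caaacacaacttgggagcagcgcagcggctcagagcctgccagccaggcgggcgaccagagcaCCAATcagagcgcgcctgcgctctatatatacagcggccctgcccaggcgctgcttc
H1-10, chr3:129316287-129316406, minus strand: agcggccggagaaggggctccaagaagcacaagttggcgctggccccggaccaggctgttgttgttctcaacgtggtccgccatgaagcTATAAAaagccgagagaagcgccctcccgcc
H2AZ1, chr4:99950276-99950395, minus strand: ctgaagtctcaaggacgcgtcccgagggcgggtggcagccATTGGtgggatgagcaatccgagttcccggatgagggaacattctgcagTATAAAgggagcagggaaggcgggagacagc
The octamer was present within 250 bases of the start in 4 of 8 promoters, in 37.3% of 59 other cluster histone promoters and in 1.66% of 27305 promoters. It began 46 bases before the start in both H2BC12 and H2BC21. H2AC6 and H2BC4 read the same octamer from opposite sides. CCAAT was present in 7 of 8, with H1-10 the exception, against 83.1% and 33% in those 2 sets, and TATAAA in 7 of 8, with H1-2 the exception, against 64.4% and 11.1%. H2BC4 had its only TATAAA 220 bases before its start, on the other strand. It is the one that H2AC6 has 31 bases before its own start. Only exact letters were counted, which leaves out near matches such as tatata in H1-2. These matches are a description of the letters in the window and not of binding.

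**Figure D1:**
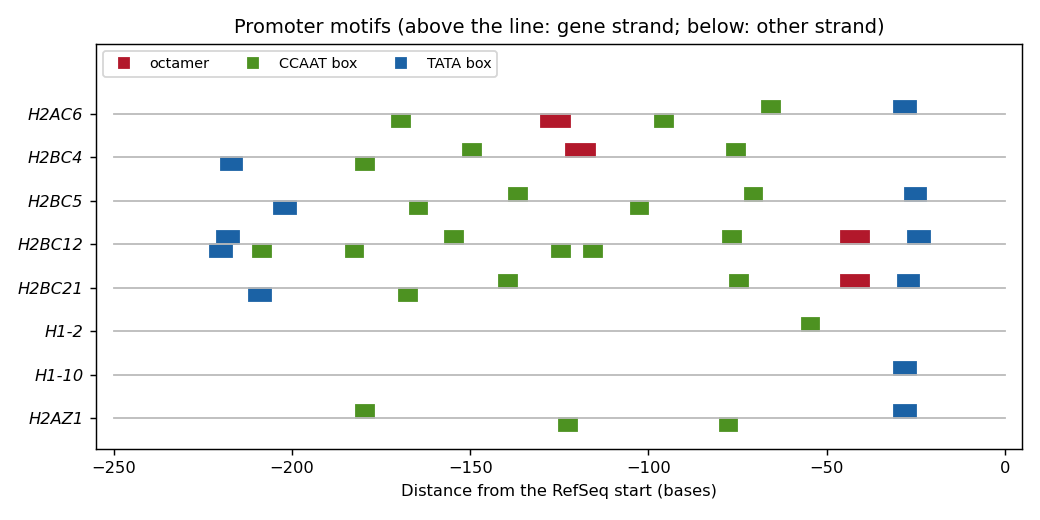
Positions of the 3 motifs in the 250 bases before each RefSeq start, one row per gene; boxes above the line are on the gene's strand and boxes below it on the other strand. H2BC12 and H2BC21 carry the octamer at the same distance from the start, and H1-2 and H1-10 hold 1 match each.

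Each library held 14464008 to 17230310 counts. At the SLERT locus in HCT116, SNORA5C, an end of SLERT, had 4 to 8 counts per control library and 551 to 714 with OE. In LoVo, SNORA5C had 9 to 19 counts per control library and 11 to 14 with KD, 37 in each group, so directions in LoVo refer to the library labels. The extract protocol of the labels describes retina, but CRX and RCVRN, markers of photoreceptors, had 3 and 4 counts over the 6 HCT116 libraries and were at 0 in LoVo. Of the other retina markers, RBPMS had 1168 counts in HCT116 and 2792 in LoVo, RPE65 had 1116 and 281, BEST1 had 31 and 195 and NRL had 45 and 120. The epithelial EPCAM had 19216 and 29456. VIL1, CDH17, LGALS4 and GPA33, markers of intestinal epithelium, had 15 to 46 counts over the HCT116 libraries and 1537 to 33554 in LoVo. CDX1 had 0 in HCT116 and 170 in LoVo, KRT20 had 117 and 825 and CDX2 had 2123 and 16736. CDH1, KRT8, KRT18 and KRT19 had 9276 to 260879 counts in HCT116 and 18633 to 405284 in LoVo. In LoVo, 10 of 12 epithelial markers passed the threshold, 4 upward and 6 downward with KD.

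H2AZ1, whose protein replaces H2A at promoters, was by far the highest of the 8 per length, and H1-10, a replication-independent linker histone, was next. In HCT116 control cells the mean FPKM, a count scaled by gene length and library total, was 99.5 for H2AZ1 and 26.5 for H1-10. H2BC12 followed at 13.6, H1-2 at 7.69, H2BC5 at 5.71 and H2AC6 at 3.19, with no overlap between neighbours in this order. H2BC4 (0.727) and H2BC21 (0.322) came last and overlapped each other. OE left the order as it was, except that H1-2 (6.39) and H2BC5 (5.07) overlapped.

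LoVo control cells had another order. H2AZ1 stood at 72.5 FPKM, H1-10 at 23.3 and H2BC12 at 21.5, and the libraries of the latter pair overlapped. H1-2 (8.33), H2AC6 (7.25), H2BC5 (4.55), H2BC21 (2.91) and H2BC4 (1.31) came after, none overlapping its neighbour. The largest contrast between the control groups was H2BC21, which was 9.04 times as high in LoVo as in HCT116. The HCT116 level rests on 15, 8 and 13 counts, so the size of this ratio is uncertain. H2AC6 was 2.27 times and H2BC12 1.58 times as high in LoVo, and H2AZ1 (0.728 times) and H2BC5 (0.797 times) were lower there, with no overlap of libraries. With 1 line of each kind these ratios describe the libraries and carry no test.

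**Figure D2:**
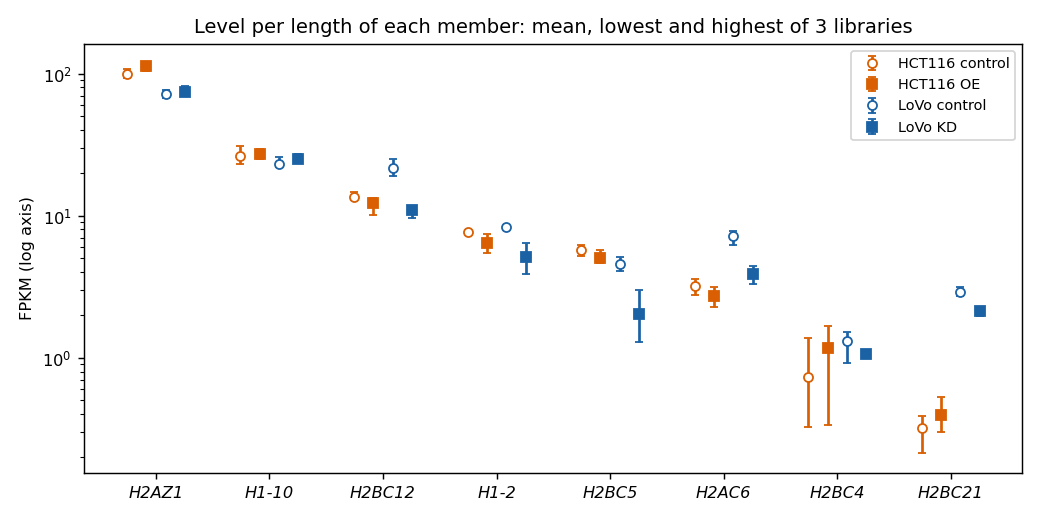
Level per length (FPKM, log axis) of each gene in the 4 groups; symbols are means of 3 libraries and bars run from the lowest to the highest library. H2AZ1 is highest in every group, and H2BC21, at only 8 to 18 counts per HCT116 library, shows the widest gap between the lines.

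The comparison within LoVo asked which genes differed with the label of SLERT knockdown. H2AC6, H2BC5, H2BC12 and H1-2 were each 1.61 to 2.21 times lower in KD, H2BC21 was 1.32 times lower, and H1-10 and H2AZ1 were not lower. Of the 8, 4 passed the edgeR threshold, all downward, beside 13.7% of the 16253 genes tested. In 5 of 8, every KD library was below every control, beside 20.1% of the genes tested. The genes were chosen with this contrast in view, so nothing is read from these shares. Their median log2 fold change was -0.54, beside 0 for all genes tested.

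H2AC6, the only H2A cluster gene of the set, stood at 10.2, 12.8 and 13 normalised CPM in LoVo controls 1, 2 and 3 and at 6.77, 5.59 and 7.41 in KD 1, 2 and 3. CPM here is the count scaled by the library total and its TMM factor. The highest KD library lay below the lowest control. The means were 12 ± 1.57 and 6.59 ± 0.919 CPM (SD, n = 3 each), a log2 fold change of -0.87 (SE 0.15), from 89 to 193 counts per library.

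Its divergent neighbour H2BC4 was low and did not separate the groups. H2BC4 had 16, 10 and 16 counts in the LoVo controls and 12, 12 and 11 with KD, or 1.06, 0.662 and 1.10 against 0.829, 0.754 and 0.741 CPM. Its log2 fold change was -0.28 (SE 0.41). At this depth neither a difference like that of H2AC6 nor its absence was detectable, although both genes face the stretch printed above.

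H2BC12, an H2B gene with an octamer close to the start, stood at 12.3, 9.26 and 10.1 CPM in the LoVo controls and at 5.94, 5.85 and 4.85 with KD. All 3 KD libraries were below all controls, with means of 10.5 ± 1.58 and 5.54 ± 0.605 CPM (SD, n = 3 each). The log2 fold change was -0.93 (SE 0.15). H2BC5, the H2B gene with a short and a spliced transcript, had 57, 66 and 51 counts in the controls and 38, 18 and 23 with KD. In CPM these were 3.77, 4.37 and 3.52 against 2.62, 1.13 and 1.55, again without overlap. KD 1 was more than 1 CPM above the other KD libraries, and the log2 fold change of -1.15 (SE 0.27) was the furthest from 0 of the 8. It was -1.54 without KD 1 and -0.89 without KD 2, the ends of its range with single libraries left out.

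H2BC21, the gene on chromosome 1 whose annotated transcript runs on past its stem-loop, stood at 6.02, 6.88 and 6.35 CPM in the LoVo controls and at 4.49, 5.09 and 4.98 with KD. The groups did not overlap, with means of 6.42 ± 0.433 and 4.85 ± 0.321 CPM (SD, n = 3 each) and a log2 fold change of -0.40 (SE 0.16). It was outside the edgeR threshold, and inside it with limma on log2(FPKM + 1) or log2(FPKM + 0.1).

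Of the linker histones, H1-2 was lower and H1-10 was not. H1-2, a cluster gene and one of the main somatic H1 subtypes, stood at 6.02, 6.02 and 6.07 CPM in the LoVo controls and at 4.76, 2.89 and 3.64 with KD. These came from 91, 91 and 88 counts in the controls and 69, 46 and 54 with KD. The SD was 0.0279 CPM among the controls and 0.943 CPM among the KD libraries, all of which lay lower. At such counts and with 3 libraries per group these SDs are uncertain, and their difference was not tested. The log2 fold change was -0.69 (SE 0.19), or -0.52 without KD 2, which was also the one left-out library that put H1-2 outside the threshold. H1-10 stood at 38.6, 33.0 and 33.4 CPM in the controls and at 42.3, 37.8 and 36.2 with KD. Its groups overlapped, with a log2 fold change of 0.15 (SE 0.088).

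H2AZ1, the most abundant of the set, did not differ beyond its spread in LoVo. The controls had 151, 173 and 166 CPM and the KD libraries 165, 187 and 159, for means of 163 ± 11.4 and 170 ± 15.1 (SD, n = 3 each). With 2274 to 2978 counts per library its log2 fold change was 0.06 (SE 0.069).

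The 6 genes other than H2AZ1 and H1-10, summed, had 582 to 604 counts per LoVo control library and 339 to 368 with KD. In CPM the sums were 39.8 ± 0.379 and 23.3 ± 2.05 (SD, n = 3 each). They made up 50.4 to 54.0% of the counts of all cluster histone genes in the controls and 38.3 to 45.5% with KD. Of all histone counts they were 2.24 to 2.32% in the controls and 1.18 to 1.43% with KD. Sums over chosen genes are a description. Some marker lists were also lower with KD. The summed CPM of 9 leukocyte markers ranged from 4.14 to 4.57 in the controls and from 2.51 to 3.66 with KD. LYZ held most of these LoVo counts (224, beside 32 for NKG7, 30 for CD14, 18 for PTPRC and 0 for CD3E and MS4A1). For 10 fibroblast and endothelial markers the sum ranged from 14.8 to 15.4 and from 2.7 to 4.28. COL3A1 held most of these LoVo counts (668 over the 6 libraries, beside 89 for COL1A1, 56 for PECAM1 and 0 for CDH5, KDR and COL1A2). The sum of 14 retina markers overlapped between the groups (38.9 to 42.4 CPM in the controls, 33.4 to 40.5 with KD). That of 12 colorectal epithelial markers was lower with KD without overlap (8160 to 8710 and 7120 to 7720 CPM). The part of these markers in the result was not tested.

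**Figure D3:**
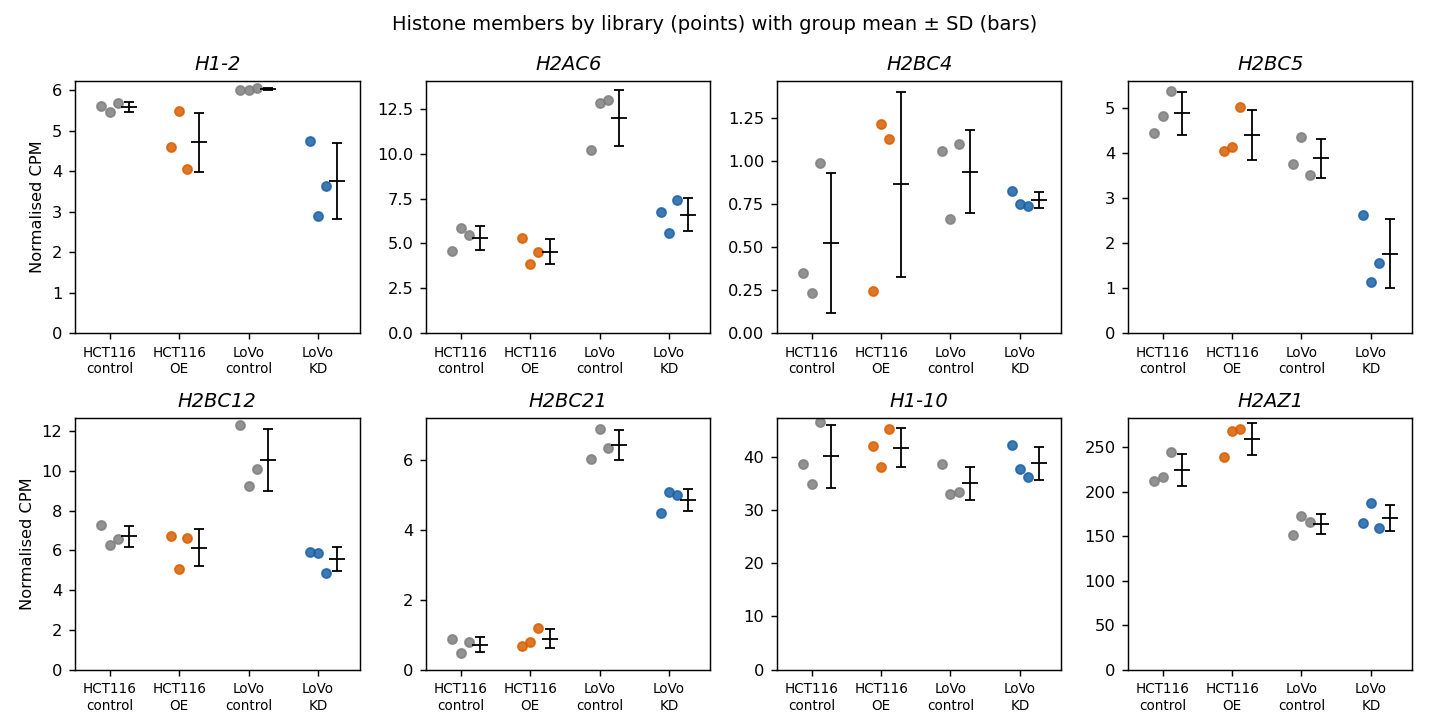
Normalised CPM of each gene in each library (points) with the group mean and SD (bars, n = 3); vertical axes start at 0 and differ between panels. In LoVo the KD points of H1-2, H2AC6, H2BC5, H2BC12 and H2BC21 lie below all control points, and in HCT116 every gene's groups overlap.

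The comparison within HCT116 asked which genes differed with more SLERT. None of the 8 genes separated the groups there: 0 of 8 had non-overlapping libraries, beside 19.1% of the 15980 genes tested in either direction. With edgeR 0 of 8 passed the threshold, beside 0.914% of all genes. For 1 of 8 the unadjusted p was under 0.05, beside 2298 of the 15980 genes tested. DESeq2 called 1, H2AZ1, upward, beside 276 of all genes, and limma on log2 FPKM called 0, beside 7. As above, these counts are not read as a result. The median log2 fold change of the 8 was -0.04, beside 0 for all genes tested.

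H2AZ1 stood at 212, 217 and 245 CPM in the HCT116 controls and at 239, 268 and 271 with OE. Only control 3 lay above an OE library, OE 1. The means were 225 ± 17.4 and 259 ± 17.6 CPM (SD, n = 3 each), a log2 fold change of 0.21 (SE 0.061) that ranged from 0.17 to 0.27 with each library left out. It was inside the edgeR threshold without control 3, without OE 1 and with no filter on low counts. For a gene chosen with these libraries in view, this is a description.

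H1-2 stood at 5.61, 5.47 and 5.70 CPM in the HCT116 controls and at 4.61, 5.48 and 4.05 with OE. OE 2 reached the controls, and the log2 fold change was -0.24 (SE 0.17). H1-10 stood at 38.7, 34.9 and 46.6 CPM and at 42, 38 and 45.2, with overlap throughout and a log2 fold change of 0.06 (SE 0.09).

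The H2A and H2B genes overlapped between the HCT116 groups. H2AC6 had 4.57, 5.87 and 5.46 CPM in the controls and 5.28, 3.84 and 4.51 with OE (log2 fold change -0.22, SE 0.18). H2BC5 had 4.45, 4.83 and 5.39 against 4.05, 4.14 and 5.04 (-0.15, SE 0.18). For both, 1 or more OE libraries lay inside the range of the controls. H2BC12 had 7.28, 6.28 and 6.57 against 6.70, 5.06 and 6.63 (-0.13, SE 0.16), with only OE 2 below all controls.

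H2BC4 and H2BC21 were too low in HCT116 to compare. H2BC4 had 6, 4 and 16 counts in the controls and 4, 20 and 17 with OE, and its log2 fold change of 0.73 (SE 0.54) ran from 0.37 to 1.55 with single libraries left out. H2BC21 had 15, 8 and 13 counts and 11, 13 and 18, with a log2 fold change of 0.31 (SE 0.43).

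Summed, the same 6 genes had 398 to 402 counts per HCT116 control library and 337 to 351 with OE, or 23.7 ± 1.04 and 21.5 ± 1.00 CPM (SD, n = 3 each). The CPM sums did not overlap (23.1 to 24.9 in the controls, 20.5 to 22.5 with OE). As a share of the cluster histone counts they were 53.0 to 58.0% and 51.9 to 55.2%, which overlap. Of all histone counts they were 0.777 to 0.801% and 0.659 to 0.713%, which do not. As in LoVo, sums over chosen genes are a description. The lines received opposite manipulations, and the difference between their changes was not tested.

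**Figure D4:**
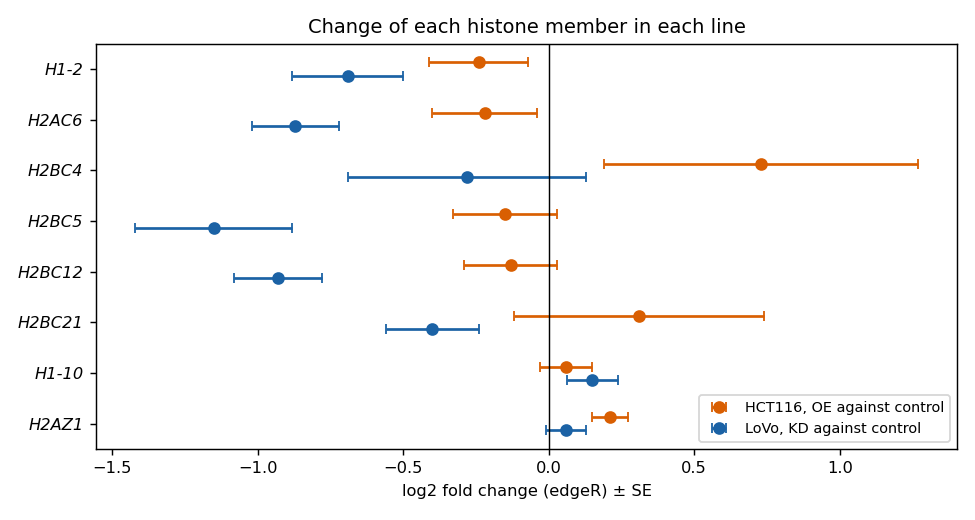
log2 fold change (edgeR) of each gene in HCT116 (OE against control) and LoVo (KD against control); bars are 1 SE. In LoVo 4 genes lie between -0.69 and -1.15. H1-10 and H2AZ1 lie above 0 in both lines, by the most for H2AZ1 in HCT116.

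The members also varied together to different degrees. Over the 12 libraries, as log2 CPM minus the mean of the line, Pearson's r was 0.89 between H1-2 and H2BC5, 0.82 between H2AC6 and H2BC5 and 0.75 between H2AC6 and H2BC12. H2AZ1 ran against these, with r = -0.44 to H1-2, and H2BC4 had r = -0.14 to its divergent neighbour H2AC6. The points share groups and libraries, and the values are a description. By the same measure the 5 genes most like the mean of the members, of 11840 compared, were TWF2 (0.964), TMEM129 (0.952), MPDU1 (0.947), IP6K1 (0.945) and CDIP1 (0.941). Their log2 fold changes in LoVo were -0.35, -0.44, -0.33, -0.17 and -0.37, smaller in size than those of H2AC6 or H2BC12.

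The histone genes within 10 kb of a member were mostly near the limit of detection. H2AC12, which starts 330 bases from H2BC12, had 8 and 6 counts over the HCT116 control and OE libraries and 5 and 1 over the LoVo control and KD libraries. H2AC20, 322 bases from H2BC21, had 29 and 57 in HCT116 and 28 and 42 in LoVo. In LoVo its log2 fold change was 0.56 (edgeR adjusted p = 0.398), beside -0.40 for H2BC21. H4C9 had 12, 14, 26 and 11 counts in the same order of groups, H2BC6 had 14, 15, 25 and 19, and H1-4 had 6, 16, 12 and 8. H2AC21 and H1-6 had at most 3 per group. Canonical H2A and H2B genes have nearly identical coding sequences, and the treatment of reads that fit several copies is not given in the sources used here; values of single copies are uncertain.

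Among 64 other cluster histones, 12 could be tested in LoVo and 1 fell, beside 13.7% of all genes. Their median log2 fold change was -0.37, beside 0 for all genes, and 9 of 12 lay below 0. The one that fell was H2BC18, an H2B gene on chromosome 1, with 13, 38 and 17 counts in the controls and 8, 10 and 7 with KD (log2 fold change -1.45, SE 0.44, edgeR adjusted p = 0.0186). It passed the filter on low counts only through the controls, where it was higher. It also enters the median above, and nothing is read from its call. This call rests on control 2: without it the log2 fold change was -0.87 (adjusted p = 0.225), and without KD 3 it was -1.35 (adjusted p = 0.0768). DESeq2 called 0 of the list. H2AC25, the highest of the list and a gene whose annotated transcript holds a stem-loop, had 12.2 ± 1.21 and 13.5 ± 1.59 CPM (SD, n = 3 each; log2 fold change 0.14, edgeR adjusted p = 0.458). H2AC11 had 43 and 20 counts per group (log2 fold change -1.11, adjusted p = 0.103) and H2BC9, at 0 in HCT116, had 78 and 62 (-0.35, adjusted p = 0.473).

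In HCT116 7 of the 64 could be tested and edgeR called 0, beside 0.914% of all genes. An unadjusted p under 0.05 was found for 2, beside 2298 of the 15980 genes tested. DESeq2 and limma called 0, beside 276 and 7 of all genes. H4C12 had 75 and 85 counts over the control and OE libraries (log2 fold change 0.27) and H2AC20 had 1.05 on the log2 scale (adjusted p = 0.263). No count at all was found for 18 of the 64 in HCT116 and for 8 in LoVo.

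The variant histones held 1 call in 9 tested genes in LoVo, beside 26.3% of all genes called there. H2AX, the variant phosphorylated at DNA breaks, has a stem-loop in its annotated transcripts like the cluster genes. It stood at 157, 136 and 142 CPM in the controls and at 114, 81.9 and 105 with KD. Every KD library was below every control, and H2AX fell by 0.54 on the log2 scale (SE 0.087, edgeR adjusted p = 7.51e-05). Over the alternatives, each library left out included, its log2 fold change ran from -0.64 to -0.41 and its adjusted p reached at most 0.0156. In HCT116 it had 125 ± 7.23 and 146 ± 13.2 CPM (SD, n = 3 each; log2 fold change 0.22, adjusted p = 0.0914; 0.0305 with no filter on low counts).

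The other abundant variants described here did not pass the threshold. H3-3B, a source of the replacement histone H3.3, had log2 fold changes of 0.05 and 0.14 (edgeR adjusted p = 0.753 and 0.0872), with every KD library above every control in LoVo, and H3-3A -0.04 and 0.09 (0.812 and 0.344). H2AZ2, which encodes the other H2A.Z protein, had 0.07 in each line (0.644 and 0.379), next to the 0.21 and 0.06 of H2AZ1. In HCT116 edgeR called 0 of 9 variant histones, beside 0.914% of all genes. The unadjusted p was under 0.05 for 1, beside 2298 of the 15980 genes tested. DESeq2 and limma called 0, beside 276 and 7 of all genes.

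Of 35 genes for transcription, processing and decay of histone mRNA, 33 were tested. In LoVo 2 rose and 6 fell, beside 12.6% of all genes upward, 13.7% downward and 26.3% in either direction, and the list's median log2 fold change was 0.02. The number called was 5 without control 1 or KD 3 and 4 without control 3. UPF1, a helicase of mRNA decay that also acts on histone mRNAs, fell from 282 ± 12.7 to 223 ± 18.1 CPM (SD, n = 3 each; log2 fold change -0.34, SE 0.064, edgeR adjusted p = 0.000405). LSM10 and LSM11, subunits of the U7 snRNP that cuts histone pre-mRNA, went opposite ways. LSM11 rose by 0.40 on the log2 scale (SE 0.095, adjusted p = 0.00321) and LSM10 fell by 0.36 (SE 0.091, adjusted p = 0.00499). SYMPK, the scaffold of the cleavage complex, fell by 0.24 (SE 0.063, adjusted p = 0.00671). SLBP, named here after its values were seen, had 93.1 ± 2.35 and 87.3 ± 2.22 CPM (SD, n = 3 each; log2 fold change -0.09, adjusted p = 0.299) in LoVo. In HCT116 it had 117 ± 2.78 and 136 ± 3.46 CPM, with every OE library above every control (log2 fold change 0.21, edgeR adjusted p = 0.0643). In HCT116 edgeR called 0 of 33, beside 0.914% of all genes. The unadjusted p was under 0.05 for 5, beside 2298 of the 15980 genes tested. DESeq2 called 1 and limma 0, beside 276 and 7 of all genes.

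Of 48 histone chaperones and importers, 47 were tested. In LoVo 6 rose and 8 fell, beside the 26.3% of all genes called there, with a median log2 fold change of 0.03. NPM1, a nucleolar chaperone, rose from 1420 ± 53.3 to 1800 ± 114 CPM (SD, n = 3 each; log2 fold change 0.34, SE 0.054, edgeR adjusted p = 5.63e-05), and IPO7, an importin for H1, rose by 0.35 (SE 0.059, adjusted p = 0.000104). ANP32B, an acidic chaperone, rose by 0.30 (SE 0.056, adjusted p = 0.000398), and TONSL, a reader of new H4 at replication forks, fell by 0.37 (SE 0.068, adjusted p = 0.000318). ASF1B, which hands H3 and H4 to the assembly factors, fell by 0.33 in LoVo (SE 0.067, adjusted p = 0.000895).

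In HCT116 4 of the 47 chaperones passed, all upward, beside 0.507% of all genes upward. CHAF1A, the large subunit of the assembly factor CAF-1, rose from 90.1 ± 2.12 to 112 ± 8.05 CPM (SD, n = 3 each; log2 fold change 0.31, SE 0.062, edgeR adjusted p = 0.0116). MCM2 (0.26, adjusted p = 0.0276), a helicase subunit that also binds H3 and H4 and stands on the S-phase list too, ASF1B (0.27, adjusted p = 0.0297) and RUVBL1 (0.21, adjusted p = 0.0461), of the H2A.Z exchange complexes, were the others. These calls were close to the threshold: DESeq2 called 7 of the list and limma 0. That of CHAF1A was lost without control 1 (adjusted p = 0.074), control 2 (0.0523) or OE 3 (0.105). That of ASF1B was lost without any library but control 3, that of MCM2 without any but control 1, and that of RUVBL1 without any of the 6.

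S-phase genes were listed for the position of the cells in the cycle. In HCT116 with OE 12 of 32 rose, beside 0.507% of all genes upward, and with TMM scaling all 32 had a log2 fold change above 0, with a median of 0.23. The number called was 4 without control 1, control 2, OE 2 or OE 3, each left out alone, and 1 with limma. MCM4 rose by 0.35 (SE 0.05, edgeR adjusted p = 0.000278), MCM5 by 0.35 (SE 0.055, adjusted p = 0.00152) and MCM3 by 0.31 (SE 0.051, adjusted p = 0.00197), all subunits of the replicative helicase. PCNA, the sliding clamp, rose by 0.27 (SE 0.052, adjusted p = 0.00997), a call lost without control 1, control 2, OE 2 or OE 3 (adjusted p = 0.0579 to 0.0765). In the same OE libraries the sum of the 6 members above was lower, although H2BC4 and H2BC21 among them had log2 fold changes above 0, and H2AZ1 overlapped between the groups. The part of the cell cycle in their values was not tested.

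In LoVo 1 of the 32 S-phase genes rose and 7 fell, beside the 26.3% of all genes called, with a median of -0.02. The number called was 2 without control 1, 4 without control 3 or KD 3 and 5 without control 2. RFC3, a subunit of the clamp loader, rose by 0.38 (SE 0.082, edgeR adjusted p = 0.0014) and TK1, a thymidine kinase of S phase, fell by 0.29 (SE 0.064, adjusted p = 0.00194). MCM2 fell by 0.24 (SE 0.068, adjusted p = 0.0117), a call lost without control 1, control 3 or KD 3 (0.0562 to 0.092). POLD1, a replicative polymerase, fell by 0.29 (SE 0.083, adjusted p = 0.0135), a call lost without control 1 (adjusted p = 0.064), without KD 2 (log2 fold change -0.15, adjusted p = 0.0775) and with limma (adjusted p = 0.0718 and 0.0692). H2AC6, H2BC5, H2BC12 and H1-2 had log2 fold changes of -0.69 to -1.15 in the same libraries and H2BC21 had -0.40. The lists were drawn up with results of these libraries known, so their counts are a description.

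**Figure D5:**
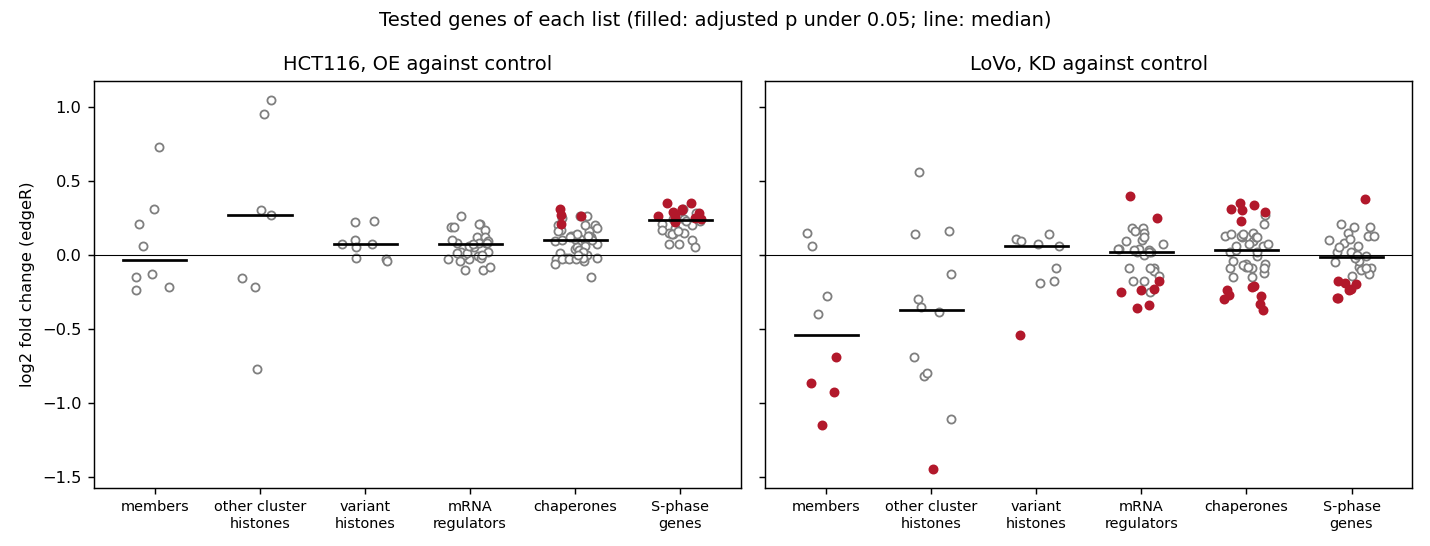
log2 fold changes (edgeR) of all tested genes of each list in each line, one point per gene; filled points have an adjusted p under 0.05 and lines are medians. In LoVo the medians of the 8 members (-0.54) and of the other cluster histones (-0.37) lie below those of the 4 other lists, which lie between -0.02 and 0.06.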

How the data were processed

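RNA from 12 libraries was measured, and the authors deposited 1 table of counts per gene and 1 of FPKM per gene. The submitters' processing notes name HISAT2 2.1.0 and the GRCh38 build. Not given in the sources used here are the counting tool, its annotation and its handling of strand. The deposited FPKM values equal the count divided by a fixed gene length and by the library's total count (largest relative deviation 4.09e-13). The 3 HCT116 control columns were assigned by their Vector heading alone, the least certain of the assignments.

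Counts were fitted within each line by edgeR 4.0.16 in R 4.3.3 (filterByExpr, TMM, quasi-likelihood test, Benjamini-Hochberg adjustment), over 15980 genes in HCT116 and 16253 in LoVo, which hold 99.8% of the counts in each. Standard errors come from the same fit. The code was tested on simulated data. FPKM was used to compare levels between genes.

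The members and the lists were chosen with earlier results of these data known. All 8 members are named. Of each list, in each line, the 4 called genes of smallest p are named, and of the histone lists also the 5 of highest FPKM. Histone genes within 10 kb of a member and the 5 genes most like the members complete the rule. A gene that the rule also names is not reported here. Total counts of 14464008 to 17230310 per library set the precision: the common biological coefficient of variation was 6% in HCT116 and 6.41% in LoVo. No replicate pair agreed within sampling noise (chi-square per degree of freedom 2.4 to 6.63). Alternatives were RLE and upper quartile factors, no filter, DESeq2 1.42.0, limma 3.58.1 on log2(FPKM + 1) and log2(FPKM + 0.1), all 12 libraries in 1 fit, a replicate block in LoVo, and each library left out. Promoters are from RefSeq (GRCh38.p14) and transcripts from GENCODE v29, which need not be the annotation behind the counts.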

Additional observations from a re-analysis of the deposited data

How the results depend on the processing

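Of the 8 genes' log2 fold changes, none moved by more than 1 SD of its replicates in either line under the alternatives that keep all libraries. With 1 of 3 libraries of a group left out, a shift can hardly pass that limit, so it shows no stability there. In those runs H2BC5 in LoVo ran from -1.54 to -0.89 and H2BC4 in HCT116 from 0.37 to 1.55. In LoVo the number called lower was 5 (with H2BC21) under limma on both log2 FPKM scales and 3 (without H1-2) when KD 2 was left out. It was 4 in every other alternative. Over all genes, 2769 to 5588 were called in either direction under the same alternatives. The 8 genes were chosen with this contrast in view, so their counts are a description. In LoVo the members' summed level had a log2 ratio of -0.18 in FPKM and -0.04 in CPM.

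Counts of calls moved as follows, and the cause was not tested beyond fewer samples where a library is left out. In HCT116 the 146 calls over all genes became 256 with no filter, 276 with DESeq2, 7 with limma on either scale and 37 to 287 with 1 library left out. Variant histones went from 0 to 1 with no filter, and mRNA regulators from 0 to 1 with DESeq2. Chaperones went from 4 to 7 with DESeq2, 0 with limma on either scale, 2 with all 12 libraries in 1 fit and 0 to 3 with 1 library left out. S-phase genes went from 12 to 1 with limma on either scale and 4 to 12 with 1 left out. In LoVo the 4278 calls became 2845 with limma on log2(FPKM + 1) and 2769 to 4813 with 1 library left out. The list counts with 1 left out were 0 to 1 for cluster histones, 1 to 2 for variants, 4 to 10 for regulators, 10 to 18 for chaperones and 2 to 10 for S-phase genes. DESeq2 called 0 cluster histones in LoVo.

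The replicate block was run in LoVo alone, since the HCT116 control columns carry no label number to pair. Same-number correlations of deviations were only 0.068, 0.085 and 0.016, although 6 of 6 LoVo libraries correlated best with their own number. These values do not settle whether the numbers mark pairs, and the main fit leaves the libraries unpaired. With the replicate block the LoVo calls were 5588 over all genes, 3 variant histones, 14 regulators, 24 chaperones and 14 S-phase genes. H3-3B (log2 fold change 0.14, adjusted p = 0.0108) and PCNA (-0.14, adjusted p = 0.0141) were inside the threshold in LoVo with it and outside without it.

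Single genes that changed sign all lay near 0 and outside the threshold. With 1 library left out, the log2 fold changes in HCT116 ran from -0.31 to 0.09 for H2AC25, -0.07 to 0.01 for H3-3A, -0.01 to 0.11 for H3-3B, -0.09 to 0.08 for LSM11, -0.08 to 0.02 for SYMPK and -0.01 to 0.05 for IPO7. In LoVo they ran from -0.14 to 0.01 for CHAF1A. IPO7 in HCT116 had -0.01 under limma on either scale and 0.00 with upper quartile factors. Counts under about 20 per library limit H2BC4 in both lines and H2BC21 in HCT116.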
